A study of Mus musculus with 228 samples.

Results

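Smoc2 and Cxcl12 are 2 of the 22870 gene rows of a single-neuron RNA sequencing experiment on mouse hippocampus, and they are described here mainly in granule cells of the dentate gyrus. Both rows were chosen by their measured levels: each was at 10 or more reads per 1000000 gene-assigned reads (CPM) in a share of control granule cells and in no cell of the other 3 groups. That pattern, and how often both genes were in the same cell, therefore stand below as a description and not as a finding. The RNA of single neurons was drawn into a patch pipette and sequenced cell by cell. Ascl4 GC cells were granule cells of the ventral hippocampus of Calb1-Cre mice that received an adeno-associated virus (AAV) carrying Ascl4 and one carrying EGFP. EGFP GC cells came from the same Cre line and region and received the EGFP virus alone. Ascl4 CA1 cells were pyramidal cells of medial CA1 from Nex-Cre mice with both viruses, and EGFP CA1 cells were their controls with the EGFP virus alone. All mice were 3 to 4 months old, and the cells were taken 1 month after the virus.

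The count table kept by the authors' quality control held 51 Ascl4 GC, 47 EGFP GC, 45 Ascl4 CA1 and 46 EGFP CA1 cells, after 39 cells were left out. Since no animal is named in the labels, a group had to be taken as 1 sample: groups could not be tested against each other, and variation from animal to animal is not known. Controls got 1 virus and not a pair, so Ascl4 and a second virus cannot be told apart, and neither can cell type and Cre line. Gene-assigned reads per cell lay between 1077532 and 25442664, and their sums were 293049911 in Ascl4 GC, 215001259 in EGFP GC, 214178461 in Ascl4 CA1 and 249606719 in EGFP CA1 cells. Title numbers fell into a first and a second run, not named as batches by the labels: 33 and 18 Ascl4 GC cells, and 15 and 32 EGFP GC cells. Ascl4 was at 14111 CPM in Ascl4 GC cells and at 47.2 CPM in EGFP GC cells, and it reached 10 CPM in all 51 Ascl4 GC cells and in 37 of 47 EGFP GC cells. Of 10 granule cell markers, at least 3 reached 10 CPM in 43 of 51 Ascl4 GC cells and in 46 of 47 EGFP GC cells. That mark was also met by 18 of 45 Ascl4 CA1 and 10 of 46 EGFP CA1 cells. By itself it does not set granule cells apart. In summed CPM, 1 of the 10 was at least 1.5-fold higher and 6 were lower in Ascl4 GC than EGFP GC cells. Over all 9783 expressed genes, as defined below, the shares were 25.6% higher and 30.7% lower. Of defining markers, the transcription factor gene Prox1 was at 10 CPM in 24 of 51 Ascl4 GC and 25 of 47 EGFP GC cells, and the synaptic gene C1ql2 in 23 of 51 Ascl4 GC and 38 of 47 EGFP GC cells.

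Smoc2 encodes a secreted, calcium-binding matrix protein of the SPARC family. From work in Xenopus, SMOC proteins can hold back bone morphogenetic protein (BMP) signals. Cxcl12 encodes a chemokine, a small secreted protein that acts through the G protein-coupled receptor Cxcr4 and is taken up by the scavenger receptor Ackr3. During development of the mouse dentate gyrus, Cxcl12 guides granule cell precursors that carry Cxcr4.

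In GENCODE annotation of GRCm38, Smoc2 lies on the plus strand of chromosome 17 from 14279506 to 14404790, with 7 transcripts, of which 3 are protein-coding, and up to 13 exons. A gene on the minus strand, 4930474M22Rik, lies inside that interval, and whether reads were counted by strand is not given in the sources used here, so reads of the pair may not be told apart. Cxcl12 lies on the plus strand of chromosome 6 from 117168535 to 117181367, with 4 transcripts, of which 3 are protein-coding, and 3 to 4 exons. No other annotated gene overlaps it. The Cxcl12 promoter is shown because Ascl4 belongs to the basic helix-loop-helix family, whose members bind E-boxes. These are the 250 bases before the Cxcl12 start (RefSeq, GRCm38.p6, chr6:117168285-117168534, plus strand), with the 6-letter GC box CCGCCC, or its reverse complement GGGCGG, in capitals.
Cxcl12 promoter: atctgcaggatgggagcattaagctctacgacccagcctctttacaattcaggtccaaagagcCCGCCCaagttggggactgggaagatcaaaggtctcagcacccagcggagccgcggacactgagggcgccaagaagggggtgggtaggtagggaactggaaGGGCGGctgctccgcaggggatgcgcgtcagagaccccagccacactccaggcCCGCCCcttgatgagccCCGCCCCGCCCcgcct
The GC box occurred 5 times in this stretch, overlapping matches included. At least 1 was found in 32.7% of 32851 promoters of the same length, and 5 or more in 1.93%. The window of 300 bases that also holds the first 50 transcribed bases was 64.7% G or C, against a median of 52.7% over all promoters. It held no E-box (CANNTG), which 72.3% of all promoters of that length held, and neither CAGCTG (16.3% of promoters) nor CAGGTG read on either strand (20.2%). The letters TATAAA, searched on both strands, were also not in the window and were in 13.6% of promoters. A match or its lack says only which letters are in this window.

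In granule cells, Smoc2 was a gene of some control cells and of almost no reads elsewhere. Among 51 Ascl4 GC cells the lowest and the median level of Smoc2 were 0 CPM and the highest was 3.09 CPM, against a lowest level of 0, a median of 0.806 and a highest of 1086 CPM among 47 EGFP GC cells. The Ascl4 GC range lay inside the EGFP GC range, since 31 of the EGFP GC cells were also under 10 CPM. Summed reads were 32 in Ascl4 GC cells and 26207 in EGFP GC cells. That is 0.109 CPM (95% exact Poisson interval 0.0747 to 0.154) in Ascl4 GC and 121.9 CPM (120.4 to 123.4) in EGFP GC cells, and the intervals cover counting error only, since PCR copies of 1 molecule cannot be recognised in these reads. At 10 CPM or more there were 0 of 51 Ascl4 GC cells, which allows a share of up to 5.88% if cells were independent draws. There were 16 of 47 EGFP GC cells, or 34% (exact Clopper-Pearson interval 20.9% to 49.3%). Limits on shares, here and below, cover the counting of cells only, since cells of 1 group may share an animal.

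The EGFP GC cells split into cells with much Smoc2 and cells with little. No read was found in 13 cells, 13 were under 1 CPM, 5 were from 1 to 10 CPM, 1 was from 10 to 100 CPM and 15 were at 100 CPM or more. The 16 cells past the threshold lay between 80.6 and 1086 CPM with a median of 282 CPM, and they held 99.5% of the group's Smoc2 reads. Just outside the threshold, the highest cell was at 9.53 CPM with 41 reads, and just inside it the cell with the fewest reads had 428. A single cell gave 5209 reads, or 19.9% of the sum, so the summed level did not rest on 1 cell. With a threshold of a single read, Smoc2 was seen in 15 of 51 Ascl4 GC cells and in 34 of 47 EGFP GC cells, so single reads were found in Ascl4 GC cells as well.

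Cxcl12 had the same shape. Among 51 Ascl4 GC cells the lowest and the median level of Cxcl12 were 0 CPM and the highest was 5.35 CPM, against a lowest level of 0, a median of 0.755 and a highest of 1359 CPM among 47 EGFP GC cells. Here too the EGFP GC cells spread over the whole range and the Ascl4 GC cells filled its lowest end. Summed reads were 51 in Ascl4 GC and 27587 in EGFP GC cells, or 0.174 CPM (0.130 to 0.229) in Ascl4 GC and 128.3 CPM (126.8 to 129.8) in EGFP GC cells. At 10 CPM or more there were 0 of 51 Ascl4 GC cells and 16 of 47 EGFP GC cells, the same number as for Smoc2.

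Within EGFP GC cells Cxcl12 had no read in 11 cells, was under 1 CPM in 16, from 1 to 10 CPM in 4, from 10 to 100 CPM in 2 and at 100 CPM or more in 14. The 16 cells past the threshold lay between 16.3 and 1359 CPM with a median of 410 CPM, and held 99.8% of the reads. The gap around the threshold was wide: the highest cell below it was at 3.37 CPM, and no cell below it had more than 12 reads, whereas the fewest reads above it were 89. The highest cell gave 6923 reads, or 25.1% of the sum. At least 1 Cxcl12 read was found in 22 of 51 Ascl4 GC cells and in 36 of 47 EGFP GC cells.

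**Figure D1:**
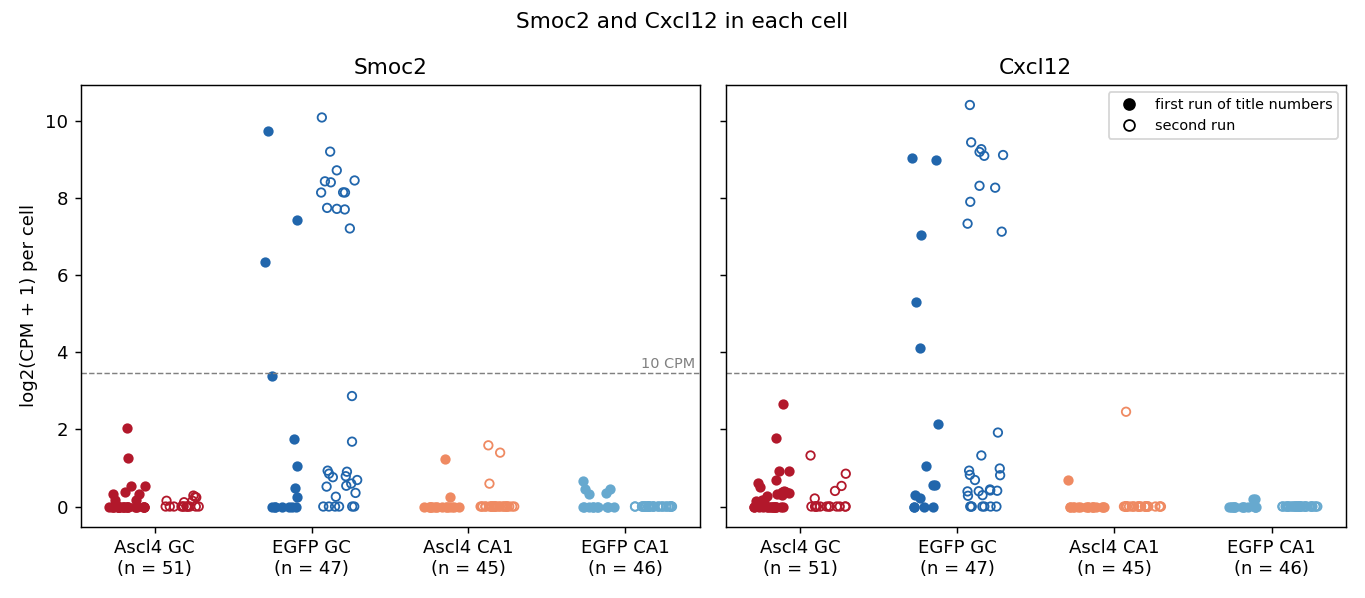
Level of Smoc2 (left) and Cxcl12 (right) in every cell kept by quality control, as log2(CPM + 1), by group; filled points are cells of the first run of title numbers, open points of the second, and the dashed line is 10 CPM. Each gene has 16 EGFP GC cells above the line, in both runs, and no cell of the other 3 groups above it.

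In CA1 pyramidal cells both genes were close to absent. Smoc2 gave 18 reads in Ascl4 CA1 cells (0.0840 CPM, highest cell 2.00 CPM) and 7 reads in EGFP CA1 cells (0.0280 CPM, highest cell 0.593 CPM). Cxcl12 gave 12 reads in Ascl4 CA1 cells (0.0560 CPM, highest cell 4.49 CPM) and 4 reads in EGFP CA1 cells (0.0160 CPM, highest cell 0.153 CPM). At 10 CPM there were 0 of 45 Ascl4 CA1 cells and 0 of 46 EGFP CA1 cells for either gene, which allows shares of up to 6.67% in Ascl4 CA1 and 6.52% in EGFP CA1 cells. Of the 12 Cxcl12 reads in Ascl4 CA1 cells, 11 came from 1 cell, which had 17883 detected genes, the most in its group. In the second run, 31 EGFP CA1 cells held no read of either gene.

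Ordered by summed CPM, Smoc2 went EGFP GC, Ascl4 GC, Ascl4 CA1 and EGFP CA1, and Cxcl12 had the same order. Neighbours in that order below EGFP GC were not all apart in counting error. For Smoc2, Ascl4 GC and Ascl4 CA1 had overlapping intervals (0.0747 to 0.154 CPM in Ascl4 GC and 0.0498 to 0.133 CPM in Ascl4 CA1), and so did Ascl4 CA1 and EGFP CA1 (0.0113 to 0.0578 CPM in EGFP CA1). For Cxcl12, Ascl4 CA1 and EGFP CA1 overlapped (0.0290 to 0.0979 CPM in Ascl4 CA1 and 0.00437 to 0.0410 CPM in EGFP CA1). All levels outside EGFP GC were far below 1 CPM.

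The ratios follow from these values and were part of what chose the genes. With 1 CPM added, the log2 ratio of Ascl4 GC over EGFP GC cells was -6.79 for Smoc2 (counting interval -6.85 to -6.72) and -6.78 for Cxcl12 (-6.86 to -6.70). They were the lowest and the next lowest of 9783 expressed genes, where expressed means a read in at least 25% of the cells and at least 10 CPM in 1 of the groups compared. The median of those genes was -0.08, and 30.7% of them were at least 1.5-fold lower in Ascl4 GC cells, which is printed as background and from which nothing is read for genes so chosen. For EGFP GC over EGFP CA1 cells the log2 ratio was 6.90 for Smoc2 and 6.99 for Cxcl12, places 8 and 6 from the top of 9954 expressed genes, of which 27.1% were at least 1.5-fold higher. Ascl4 CA1 over EGFP CA1 cells gave 0.08 for Smoc2 and 0.06 for Cxcl12, with neither gene expressed by the rule.

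Counted by cells, 4325 genes reached 10 CPM in at least 25% of EGFP GC cells. Of these, 2 genes (0.0462%) were at 10 CPM in no Ascl4 GC cell, and they were Smoc2 and Cxcl12. In no EGFP CA1 cell were 18 genes (0.416%), and the count for none of the other 3 groups was again 2 (0.0462%). In the opposite direction, 0 of 4468 genes (0%) reached 10 CPM in at least 25% of Ascl4 GC cells and in no EGFP GC cell. The nearest genes, picked after their values were seen, were each in 1 Ascl4 GC cell: Cpox, a gene of heme synthesis, in 14 EGFP GC cells, Trhr, the receptor for thyrotropin-releasing hormone, in 13, and the transporter-family gene Slc26a10 in 12. Trhr was at 1.80 CPM in Ascl4 GC and 61.02 CPM in EGFP GC cells, and 7 of its 13 EGFP GC cells were Smoc2 cells. The count of 2 rests on cells from both runs: within the first run 8 genes met the same rule, and within the second 12.

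**Figure D2:**
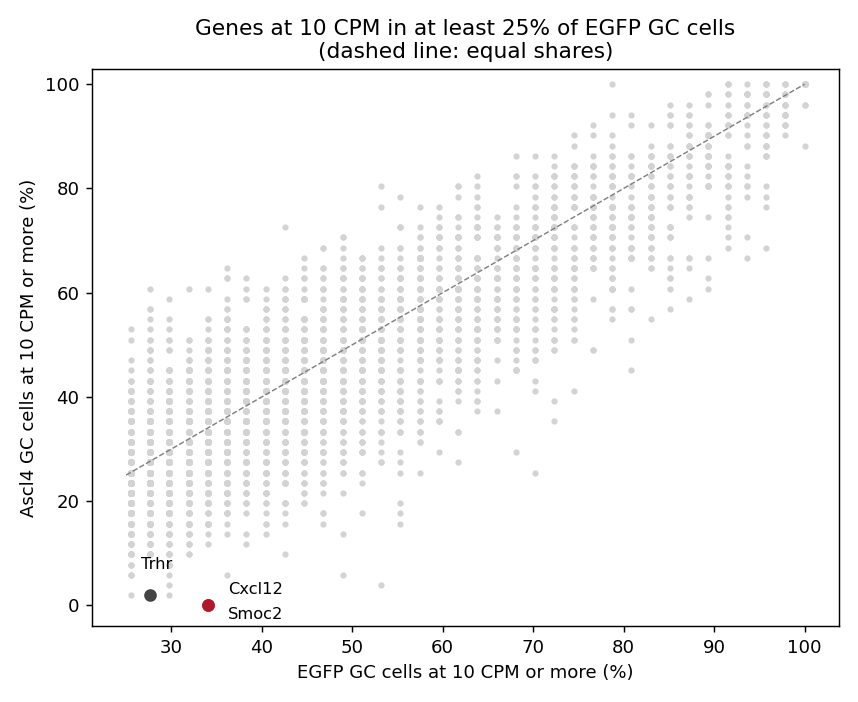
Share of cells at 10 CPM or more in Ascl4 GC (vertical axis, %) against EGFP GC (horizontal axis, %) for the 4325 genes at 10 CPM in at least 25% of EGFP GC cells; the dashed line marks equal shares. Smoc2 and Cxcl12 share 1 point, at 0% of Ascl4 GC and 34% of EGFP GC cells, and Trhr lies at 1.96% and 27.7%.

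Although each gene was in 16 EGFP GC cells, these were mostly different cells. Both genes were at 10 CPM in 3 cells, Smoc2 alone in 13, Cxcl12 alone in 13 and neither in 18, so that 29 of 47 cells (61.7%) had at least 1 of them. Cxcl12 was in 3 of the 16 Smoc2 cells, or 18.8% (exact interval 4.05% to 45.6%), and in 13 of the 31 other EGFP GC cells, or 41.9% (24.5% to 60.9%). These intervals overlap and cover counting error only. In the first run 1 of 15 cells had both, with 3 Smoc2 and 5 Cxcl12 cells, and in the second run 2 of 32, with 13 Smoc2 and 11 Cxcl12 cells. At a threshold of 50 CPM the cells with both were again 3, and at 1 CPM they were 7, of 21 Smoc2 and 20 Cxcl12 cells.

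Smoc2-only and Cxcl12-only cells were under 10 CPM of the other gene by definition. Among EGFP GC cells, none lay between 9.53 and 80.6 CPM of Smoc2 or between 3.37 and 16.3 CPM of Cxcl12. Low levels of the other gene in these cells therefore follow from how the cells were sorted, and they are a description only. Among the 13 Smoc2-only cells the highest Cxcl12 level was 2.78 CPM, and 4 of the 13 had no Cxcl12 read. Among the 13 Cxcl12-only cells the highest Smoc2 level was 6.28 CPM, in the cell with the most Cxcl12, at 1359 CPM. In the 3 cells with both, numbered 7, 72 and 89 in the titles, Smoc2 was at 170, 282 and 213.1 CPM. The same cells had 131.4, 160.3 and 138.7 CPM of Cxcl12, below 11 of the 13 Cxcl12-only cells, whereas their Smoc2 levels lay within the range of the Smoc2-only cells.

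The cell numbered 72 had 9239 detected genes, the most in its group, and at least 10 CPM of 3 of 8 fibroblast markers, 5 of 8 astrocyte markers and 4 of 8 interneuron markers, besides 6 of 10 granule cell markers. The cell numbered 7 had 8 granule cell markers, 4 astrocyte markers and no fibroblast or endothelial marker at that level, and the cell numbered 89 had 8 granule cell markers and 1 astrocyte marker. Whether RNA of another cell has a part in the cells with both genes was not tested.

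**Figure D3:**
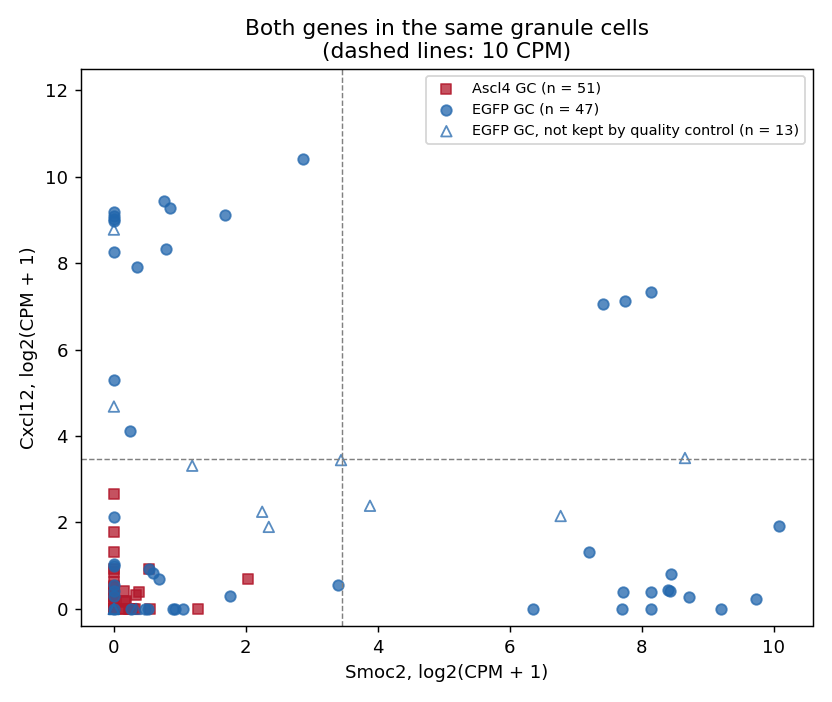
Cxcl12 (vertical axis) against Smoc2 (horizontal axis) in granule cells, both as log2(CPM + 1); red squares are Ascl4 GC cells, blue circles EGFP GC cells, open triangles EGFP GC cells that quality control left out, and dashed lines mark 10 CPM. Most cells with a high level lie along one axis, 3 kept EGFP GC cells lie in the upper right field, and every Ascl4 GC cell lies in the lower left field.

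Cells left out by quality control were not used in choosing the genes and show how they stood there. Of 5 such Ascl4 GC cells, 0 had either gene at 10 CPM, and the exact interval for 0 of 5 reaches 52.2%. Of 13 such EGFP GC cells, 5 had at least 1 of them. Smoc2 was at 13.7, 108.3 and 403 CPM in 3 of the 13, and Cxcl12 at 437, 24.7 and 10.2 CPM in 3. The cell numbered 76 had both, with 393 Smoc2 and 10 Cxcl12 reads. The counts behind 3 of these values were low: 13 reads for the lowest Smoc2 value, and 6 and 10 reads for the lower Cxcl12 values. At 1 CPM, 7 of the 13 cells had Smoc2, 9 had Cxcl12 and 7 had both, several on 3 reads or fewer. Over all 60 EGFP GC cells, 19 were at 10 CPM for Smoc2, 19 for Cxcl12 and 4 for both, against 0 of 56 Ascl4 GC cells for either gene. The 56 include the 51 kept cells used in choosing the genes.

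Both runs of title numbers held cells of each gene, in unequal shares for Smoc2. Smoc2 was at 10 CPM in 3 of 15 EGFP GC cells of the first run (94.1 CPM summed) and in 13 of 32 of the second (135.96 CPM summed). In the first run 1 cell gave 76.5% of the Smoc2 reads. Cxcl12 was in 5 of 15 cells of the first run (82.3 CPM) and 11 of 32 of the second (151.6 CPM). The log2 ratio of Ascl4 GC over EGFP GC cells was -6.35 in the first run and -7.03 in the second for Smoc2, and -6.10 and -7.08 for Cxcl12.

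Cells with either gene spanned a wide range of depth. The 16 Smoc2 cells had a median of 5441934 reads and 7494 detected genes and the 16 Cxcl12 cells 4242705 reads and 6898 genes, against 4420630 reads and 6975 genes over all 47 EGFP GC cells. Across those cells the Spearman correlation with total reads was 0.18 for Smoc2 and -0.22 for Cxcl12, and with the number of detected genes 0.27 for Smoc2 and 0.04 for Cxcl12. Cells of 1 group share their virus and region, may share an animal, and these correlations are a description only. Ascl4 reads, present at low level in EGFP GC cells, gave -0.14 with Smoc2 and 0.20 with Cxcl12.

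Levels of the pair with each other gave a Spearman correlation of -0.27 over 47 EGFP GC cells, -0.39 in the 15 cells of the first run and -0.23 in the 32 of the second. Among 8788 genes this was place 8632 from the highest for Smoc2, whose median correlation with a gene was 0.08 and whose range was -0.51 to 0.58. For Cxcl12 it was place 8442 from the highest, with a median of 0.00 and a range of -0.54 to 0.61. These places are a description only, since both genes were chosen by their levels in these cells. With the cells left out by quality control included, the correlation of the pair was -0.13.

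The genes most like each member over the 47 cells differed between Smoc2 and Cxcl12. They were picked as the highest of 8788 correlations in these same cells. Their correlations and their overlap with Smoc2 or Cxcl12 cells follow from that choice and are a description only. For Smoc2 the highest correlations were with Tubd1, a tubulin gene (0.58), Gne, an enzyme of sialic acid synthesis (0.58), and Cct5, a subunit of the TRiC chaperonin (0.56). Cct5 was at 10 CPM in 36 EGFP GC cells, including 15 of the 16 Smoc2 cells. The next 7 were Ppp6r2, Akap8l, Hipk1, Gpr107, Ppif, Eea1 and Matn2, with 0.54 to 0.56. Ppif, the mitochondrial cyclophilin gene, was at 10 CPM in 8 EGFP GC cells, and all 8 were Smoc2 cells, whereas Ppif was also in 7 Ascl4 GC cells. The matrix gene Matn2 was in 3 Ascl4 GC cells and 12 EGFP GC cells, of which 9 were Smoc2 cells.

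For Cxcl12 the highest were Armc1 (0.61), the endosomal sorting ATPase gene Vps4b (0.58) and the receptor gene Notch2 (0.57). Armc1 was at 10 CPM in 22 Ascl4 GC cells and in 13 EGFP GC cells, of which 8 were Cxcl12 cells. The next 7 were Arl6ip4, Selenow, Use1, Rilpl2, Grn, Kctd1 and Ccdc74a, with 0.49 to 0.53. None of these 20 genes was missing from Ascl4 GC cells: each was at 10 CPM in at least 3 of them. For Ccdc74a the correlation was -0.03 in the first run and 0.61 in the second, and for Eea1 with Smoc2 it was 0.08 and 0.65.

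Among the comparison genes, C1ql2 was at 10 CPM in 16 of 16 Smoc2 cells and 13 of 16 Cxcl12 cells. Prox1 was at 10 CPM in 12 of the 16 Smoc2 cells and 7 of the 16 Cxcl12 cells. The serotonin receptor gene Htr1a was at 10 CPM in 6 EGFP GC cells, of which 4 were Cxcl12 cells and 0 were Smoc2 cells. Lct, the lactase gene, was in 1 of 51 Ascl4 GC cells and 9 of 47 EGFP GC cells, and all 9 were cells with Smoc2 (7) or Cxcl12 (2). These counts are small and were looked at with earlier results of these cells known.

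Cell types other than granule cells that are known to make Cxcl12 or Smoc2 were followed by their markers. Summed over 10 endothelial markers, the median was 0.546 CPM in Ascl4 GC cells (highest 360) and 0.490 CPM in EGFP GC cells (highest 143.6). No EGFP GC cell had more than 1 of these markers at 10 CPM, 6 of 47 had 1, and Cldn5, Flt1, Cdh5, Ly6c1 and Slco1a4 were at 10 CPM in no EGFP GC cell. In the 16 Cxcl12 cells the endothelial sum lay between 0 and 27.3 CPM, and in the 16 Smoc2 cells between 0 and 143.6 CPM. The sum over 8 pericyte and smooth muscle markers reached 0.885 CPM at most in Cxcl12 cells and 11.9 CPM in Smoc2 cells, and 7 of the 8 markers were at 10 CPM in no EGFP GC cell. Fibroblast markers summed to a median of 0 CPM in both granule cell groups, with at least 3 of 8 markers at 10 CPM in 0 of 51 Ascl4 GC and 1 of 47 EGFP GC cells, the cell numbered 72.

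Of 6 Cajal-Retzius markers, which mark early-born cells next to the granule cell layer, at least 3 were at 10 CPM in 4 of 51 Ascl4 GC cells and in 0 of 47 EGFP GC cells. Reln, Trp73, Lhx1 and Ndnf were at 10 CPM in no EGFP GC cell. Glial markers were more common and were found with and without the members. At least 3 of 8 astrocyte markers were at 10 CPM in 7 of 51 Ascl4 GC and 7 of 47 EGFP GC cells. Of these 7 EGFP GC cells, 4 were Smoc2 cells and 4 were Cxcl12 cells, with the cells numbered 7 and 72 in both counts. The summed astrocyte markers had a Spearman correlation of 0.18 with Smoc2 and 0.14 with Cxcl12 over EGFP GC cells. At least 1 of 10 microglia markers was at 10 CPM in 29 of 51 Ascl4 GC and 24 of 47 EGFP GC cells, among them 12 of the 16 Smoc2 cells and 8 of the 16 Cxcl12 cells. At least 3 of them were at 10 CPM in 14 of 51 Ascl4 GC and 5 of 47 EGFP GC cells, of which 1 was a Smoc2 cell and 2 were Cxcl12 cells. The summed oligodendrocyte markers had a median of 43.5 CPM in Ascl4 GC and 238 CPM in EGFP GC cells, whereas the reads summed over cells were higher in Ascl4 GC. Mbp was at 5754 CPM in Ascl4 GC and 438 CPM in EGFP GC cells, and its log2 ratio of 3.71 was -0.62 in the first run. Of 4 expressed oligodendrocyte markers 3 were at least 1.5-fold higher and 0 lower in Ascl4 GC cells (median log2 ratio 2.69), and at least 3 of 8 were at 10 CPM in 6 of 51 Ascl4 GC and 3 of 47 EGFP GC cells. The 3 were Cxcl12 cells and not Smoc2 cells. Per cell, the summed markers had a Spearman correlation of 0.36 with Cxcl12 and -0.18 with Smoc2 over EGFP GC cells. The part of glial markers in the results for Smoc2 and Cxcl12 was not tested.

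The relatives of Smoc2 were read from a list of the SMOC and SPARC family, which holds 7 genes besides Smoc2. Of the 6 of them expressed in granule cells, 2 were at least 1.5-fold higher and 2 lower in Ascl4 GC cells, with a median log2 ratio of 0.39, against 25.6% higher, 30.7% lower and a median of -0.08 over all expressed genes. Smoc1, the closest relative of Smoc2 and not among the 6, was at 0.116 CPM in Ascl4 GC and 12.4 CPM in EGFP GC cells, but only 1 EGFP GC cell was at 10 CPM, and without the highest cell of each group its log2 ratio was 0.05. Fstl1, a secreted glycoprotein gene, was at 7.85 CPM in Ascl4 GC and 31.3 CPM in EGFP GC cells. Spock1, a matrix proteoglycan gene, went the other way, with 13.3 CPM in Ascl4 GC and 0.247 CPM in EGFP GC cells, and 6 of 51 Ascl4 GC cells at 10 CPM, and its log2 ratio of 3.52 was 1.36 without cells of more than 12000 genes. Sparc was at 111.1 CPM in Ascl4 GC and 66.5 CPM in EGFP GC cells, and its log2 ratio of 0.73 was -0.91 without cells of more than 12000 genes (4 in Ascl4 GC and 0 in EGFP GC) and -0.24 in the authors' normalized values.

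In the BMP pathway, with which SMOC proteins are linked, 12 of 29 listed genes were expressed in granule cells. Of these, 0 were at least 1.5-fold higher and 8 lower in Ascl4 GC cells, with a median log2 ratio of -0.94, against 25.6% higher, 30.7% lower and a median of -0.08 over all expressed genes. Ligand genes were low, and none was expressed by the rule. Bmp2 was at 0.0171 CPM in Ascl4 GC and had no read in EGFP GC cells. Bmp4 was at 0.215 CPM in Ascl4 GC and 0.00465 CPM in EGFP GC cells. Bmp6 had the most reads, at 4.00 CPM in Ascl4 GC (2 of 51 cells at 10 CPM) and 0.0140 CPM in EGFP GC cells. Its log2 ratio of 2.30 was -0.02 in the first run. Bmp3 was at 0.0921 CPM in Ascl4 GC and 0.158 CPM in EGFP GC cells. Of the receptors, Bmpr1a was at 7.18 CPM in Ascl4 GC and 24.8 CPM in EGFP GC cells, a log2 ratio of -1.66 that was -0.21 without the deepest 10% of cells, -0.44 without the highest cell of each group and -0.52 with cells thinned to 500000 reads. Acvr2a was at 49.1 CPM in Ascl4 GC and 134.7 CPM in EGFP GC cells. Of the secreted inhibitors, chordin (Chrd) was at 76.04 CPM in Ascl4 GC and 198.7 CPM in EGFP GC cells. Others, not expressed by the rule, went both ways. Grem1 was at 8.50 CPM in Ascl4 GC and 0.130 CPM in EGFP GC cells, and Nog at 4.42 and 0.860 CPM. Fst was lower, at 3.25 CPM in Ascl4 GC and 18.3 CPM in EGFP GC cells. Smad4, the shared partner of the receptor-activated SMAD proteins, was at 20.2 CPM in Ascl4 GC and 55.3 CPM in EGFP GC cells, a log2 ratio of -1.41 that was -0.06 in the first run. Under 6 other ways of summing and choosing cells, tried after the data were seen, the count of lower genes lay between 5 (the mean of per-cell CPM without the highest cell of each group) and 10, and that of higher genes between 0 and 5. Among the 8 lower genes, the receptor genes Acvr1 (0.79 in the first run) and Bmpr2 (0.25 in the second) turned in direction within a run. The other 4 expressed genes, Bambi, Smad7, Smad1 and Id4, had log2 ratios of 0.56, 0.49, 0.22 and 0.18. In the first run these were 2.37, 1.04, 2.78 and 4.15, and in the second -0.91, -0.77, -1.33 and -2.91.

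The partners of Cxcl12 were read from a list of 14 genes of its signalling axis, of which 12 were found and 8 expressed in granule cells. Of the 8, 3 were at least 1.5-fold higher and 2 lower in Ascl4 GC cells, with a median log2 ratio of -0.16, against 25.6% higher, 30.7% lower and a median of -0.08 over all expressed genes. The signalling receptor Cxcr4 was at 0.0478 CPM in Ascl4 GC and 0.00465 CPM in EGFP GC cells, and no granule cell reached 10 CPM. The scavenger receptor Ackr3 was at 12 CPM in Ascl4 GC (4 of 51 cells at 10 CPM) and 25.1 CPM in EGFP GC cells (5 of 47), with a log2 ratio of -1.003 that was 0.19 in the first run and -0.36 with cells thinned to 500000 reads. The G protein subunit gene Gnai3 was at 21.9 CPM in Ascl4 GC (5 of 51 cells at 10 CPM) and 102.3 CPM in EGFP GC cells (9 of 47). Its highest EGFP GC cell was at 3314 CPM. The related Gnai1 was at 108.9 CPM in Ascl4 GC and 100.8 CPM in EGFP GC cells, and Gnai2 at 33.7 and 45.5 CPM. The arrestin gene Arrb1, whose protein ends receptor signalling, was at 45.2 CPM in Ascl4 GC and 11.4 CPM in EGFP GC cells.

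Besides Cxcl12, 12 of 40 listed chemokine genes were expressed in granule cells, of which 8 were at least 1.5-fold higher and 1 lower in Ascl4 GC cells, with a median log2 ratio of 2.07, against 25.6% higher, 30.7% lower and a median of -0.08 over all expressed genes. Microglia markers moved with them: of 9 expressed, 5 were at least 1.5-fold higher and 0 lower, with a median log2 ratio of 1.11, and 14 of 51 Ascl4 GC cells against 5 of 47 EGFP GC cells had at least 3 of the 10 markers at 10 CPM. Their part in the chemokine values was not tested. Ccl3 was at 120.8 CPM in Ascl4 GC and 1.19 CPM in EGFP GC cells, and Cxcl13 at 97.1 CPM in Ascl4 GC and 0.247 CPM in EGFP GC cells. These sums came from few cells. Ccl3 was at 10 CPM in 9 of 51 Ascl4 GC cells (highest 3635 CPM) and 1 of 47 EGFP GC cells. Cxcl13 was at 10 CPM in 5 of 51 Ascl4 GC cells (highest 2876 CPM) and 0 of 47 EGFP GC cells. The Ccl3 ratio of 5.80 on the log2 scale was 2.80 without quality control. Cx3cl1, a membrane-bound chemokine of neurons, was at 747 CPM in Ascl4 GC and 700 CPM in EGFP GC cells.

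**Figure D4:**
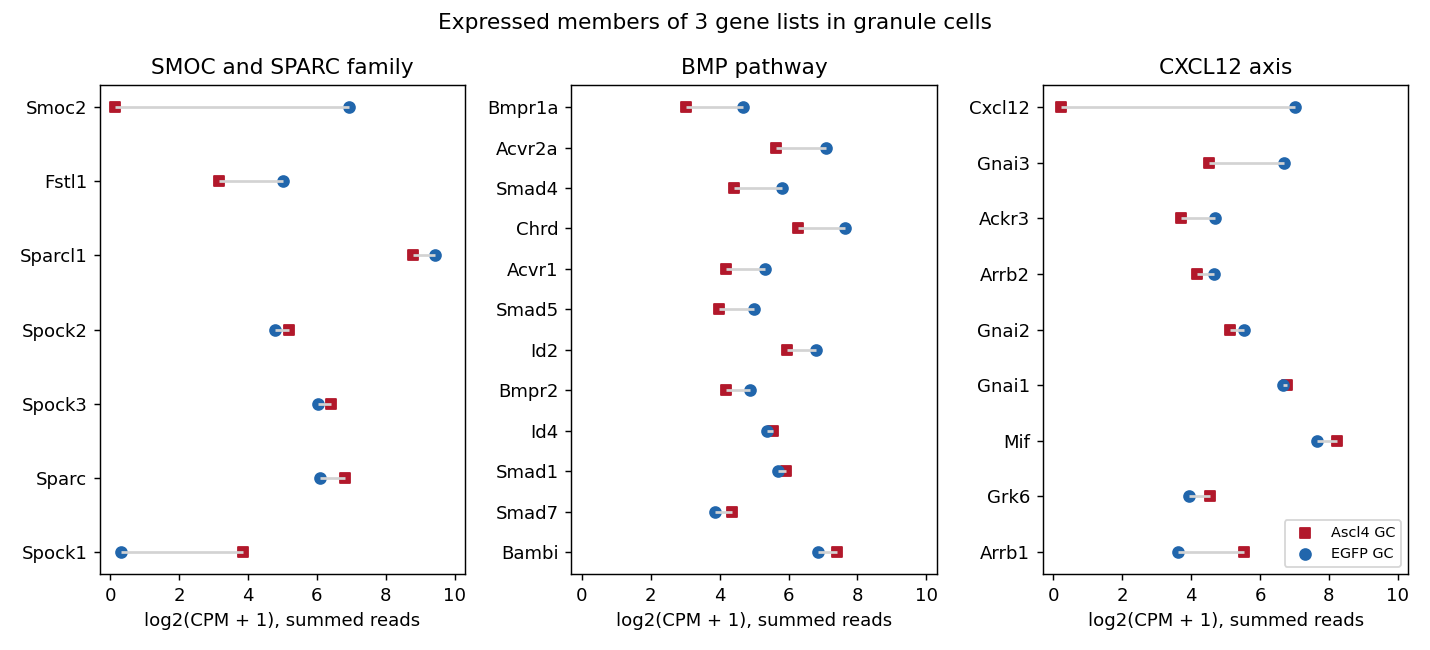
Summed level of the expressed members of the SMOC and SPARC family, the BMP pathway and the CXCL12 axis as log2(CPM + 1), with red squares for Ascl4 GC and blue circles for EGFP GC cells and a grey line joining the pair. Smoc2 and Cxcl12 have the longest lines toward EGFP GC in their lists, at log2 ratios of -6.79 and -6.78, and Spock1 has the longest in the other direction, at 3.52 (1.36 without cells of more than 12000 genes).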

How the data were processed

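Single-cell RNA sequencing of neurons, with and without the authors' quality control, was read from deposited counts per gene, made with STAR and HTSeq on GRCm38.p4 per the submitters' processing notes. Their versions, settings and treatment of strand are not given in these sources. A deposited table of normalized signal, in which the authors divided each cell's counts by 1 factor, served as an alternative. The 92 spike-in rows were left out of totals. The series text states 204 cells past quality control, and the table was used as it stands.

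Reads were summed per group, so deeper cells weigh more, and scaled to 1000000 (CPM), with 1 CPM added before log2 ratios. CPM is not divided by transcript length, so levels of different genes were not compared. Intervals at 95% were exact Poisson for counts and exact Clopper-Pearson for shares, and a share of 0 was bounded with 3 counts. No test was run. The first run of titles ends at number 60 in GC and 160 in CA1. The rule for named genes took both members, the 10 genes with the highest correlation with each (predicted, pseudogene, ribosomal and mitochondrial genes left out), genes in no Ascl4 GC cell, and lists. 1 gene of the BMP list is not reported here and is left out of its counts. Members and lists were chosen with earlier results of these data known. Promoters came from RefSeq, where 1 of the 2 members was matched by symbol. Calculations were checked on simulated data. Alternatives were other thresholds, pseudocounts, scalings and sets of cells. Leaving out cells of more than 12000 genes was added after seeing the data. Tools were edgeR 4.0.16 (TMM) and DESeq2 1.42.0 (size factors) in R 4.3.3, and scipy 1.17.1, pandas 2.3.3, numpy 2.4.6 and matplotlib 3.10.9 in Python 3.11.15.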

Additional observations from a re-analysis of the deposited data

How the results depend on the processing

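Log2 ratios of Ascl4 GC over EGFP GC cells are given for Smoc2 and then for Cxcl12, where a value left its counting interval. Without quality control Smoc2 was -6.71, and with cells thinned to 500000 reads -6.71. First-run cells gave -6.35 and -6.10, second-run cells -7.03 and -7.08. Without the deepest 10% of cells they were -6.71 and -6.99, and as a mean of per-cell CPM without the highest cell -6.60 and -6.59. TMM scaling gave -6.87 and -6.86, median-of-ratios scaling -6.86 for Smoc2, and the authors' normalized values -6.57 and -7.05. A pseudocount of 0.1 CPM gave -9.19 and -8.87, and one of 10 CPM -3.71 and -3.76. For EGFP GC over EGFP CA1 cells, in the same order of settings and genes, the ratios were 6.83 and 6.92, 6.97 and 7.20, 6.46 and 6.32, 7.10 and 7.25, 6.77 and 7.26, 6.68 and 6.88, 6.99 and 7.08, 6.98 and 7.07, 6.77 and 7.55, 9.90 and 10.1, and 3.72 and 3.79. The mean of per-cell CPM gave 7.16 for Cxcl12. No alternative changed the sign of a member's ratio in these comparisons. The median of all genes for Ascl4 GC over EGFP GC cells was 0.14 in the first run and -0.22 in the second.

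With a threshold of 1 read, the share of cells was 29.4% of Ascl4 GC and 72.3% of EGFP GC cells for Smoc2, 43.1% of Ascl4 GC and 76.6% of EGFP GC cells for Cxcl12, and 51.1% of EGFP GC cells for both genes. In the first run Smoc2 was at 10 CPM in 20% of EGFP GC cells. The count of genes in at least 25% of EGFP GC cells and in no Ascl4 GC cell was 8 in the first run, 12 in the second, 0 at 1 read, 0 at 1 CPM and 23 when 10% of EGFP GC cells were enough. The correlation of the pair was -0.13 without quality control and -0.39 in the first run. Among the genes recomputed under all settings and at least 1.5-fold apart between Ascl4 GC and EGFP GC cells, direction turned for Smoc1 without the highest cell (0.047), Sparc without cells of more than 12000 genes (-0.91) and in the authors' values (-0.24), Id2 in the authors' values (0.36), Acvr1 (0.79), Ackr3 (0.19) and Mif (-0.059) in the first run, Bmpr2 in the second run (0.25) and without the highest cell (0.12), and Grk6 in the second run (-0.36). Spock3, under 1.5-fold apart at 0.39, was at -0.68 in the second run. The cause of these changes was not tested. With cells thinned to 500000 reads, each gene was again at 10 CPM in 0 of 51 Ascl4 GC and 16 of 47 EGFP GC cells. No paired analysis was possible because the title numbers are unique to a cell and no animal is named.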

Other observations

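The title numbers of the control granule cells were looked at after their values were seen. In the second run, the kept EGFP GC cells numbered 79, 80, 81 and 82 all had Cxcl12 at 10 CPM and none had Smoc2, and those numbered 95, 96, 97, 99 and 100 all had Smoc2 and none had Cxcl12. Cells numbered 70, 71, 72 and 74 all had Smoc2, of which 72 also had Cxcl12. The labels do not say what the numbers stand for, so neighbouring cells may share a slice, an animal or a day, and this was not tested.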
